A study of Mus musculus with 18 samples.

Results

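Tnfrsf11b, the gene that encodes osteoprotegerin (OPG), was measured in the whole aortas of 18 mice by 1 probe (scl47198.5_117-S) of the 46624 on the array. It is 1 of the 1342 genes for which the study's lists of differing transcripts pair a probe with a name, and no other probe in those lists carries its symbol. All mice were male ApoE-/- animals, which lack apolipoprotein E, and were 13 to 14 weeks old when their pumps were placed. Of the 12 that received angiotensin II at 1.44 µg/kg/min for 4 weeks, 5 developed an abdominal aortic aneurysm (AAA) and 7 did not (no AAA, aneurysm resistant). The remaining 6 received saline for 4 weeks. Each array held the RNA of 1 aorta, and the comparisons ask whether OPG expression differed between aneurysmal, aneurysm resistant and control aortas.

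OPG is a secreted member of the tumour necrosis factor (TNF) receptor superfamily that has no membrane anchor and acts as a decoy. It binds RANK ligand, the product of Tnfsf11, and so keeps it from its receptor RANK on osteoclast precursors, which limits bone resorption. It also binds TRAIL, a death ligand of the same superfamily. In the vessel wall, smooth muscle cells and endothelial cells are known sources, and mice that lack the gene lose bone and calcify their large arteries.

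Values are the deposited bead signals divided by the median signal of their array, given either as this ratio or as its log2 (the log2 level). Between 18647 and 21052 probes were detected per array, and array medians lay between 108.1 and 142.6 signal units, lowest in saline controls (108.1 to 126.8). The arrays lay on 3 BeadChips of 6 arrays. All saline arrays were on BeadChip 1, no AAA 1 to 6 were on BeadChip 2, and AAA 1 to 5 shared BeadChip 3 with no AAA 7, so that BeadChip and group cannot be told apart for saline. Groups follow the array name in each sample's description. In a second deposited table of ratios, 12 of 18 columns hold the values of another array. There AAA 1 to 5 are exchanged with no AAA 1 to 5, and no AAA 6 with no AAA 7. Each Tnfrsf11b difference is also given for that assignment. Differences of other genes and lists are given below for the first assignment only. For osteoclast genes the median difference between AAA and no AAA was 1.23 in the first and -0.65 in the second. For smooth muscle genes it was -1.12 and 0.84.

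Tnfrsf11b was detected on every array and was lowest in saline controls, higher in aneurysm resistant aortas and highest on average in AAA. In saline 1 to 6 its signal was 14.6, 11.1, 8.35, 9.84, 10.7 and 11.7 times the array median. In no AAA 1 to 7 it was 25.0, 30.3, 48.1, 36.0, 18.3, 21.5 and 31.1 times the median. In AAA 1 to 5 it was 44.8, 49.3, 45.3, 33.0 and 42.5 times the median. Every array of an angiotensin II infused mouse lay above every saline array, the nearest pair being no AAA 5 and saline 1, whose values differed 1.25-fold. The AAA and no AAA arrays overlapped: no AAA 3 and no AAA 4 lay inside the AAA range and the other 5 resistant aortas lay below it. In a homogenate of the whole aorta, more cells that express a gene and more of its RNA per cell cannot be told apart.

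**Figure D1:**
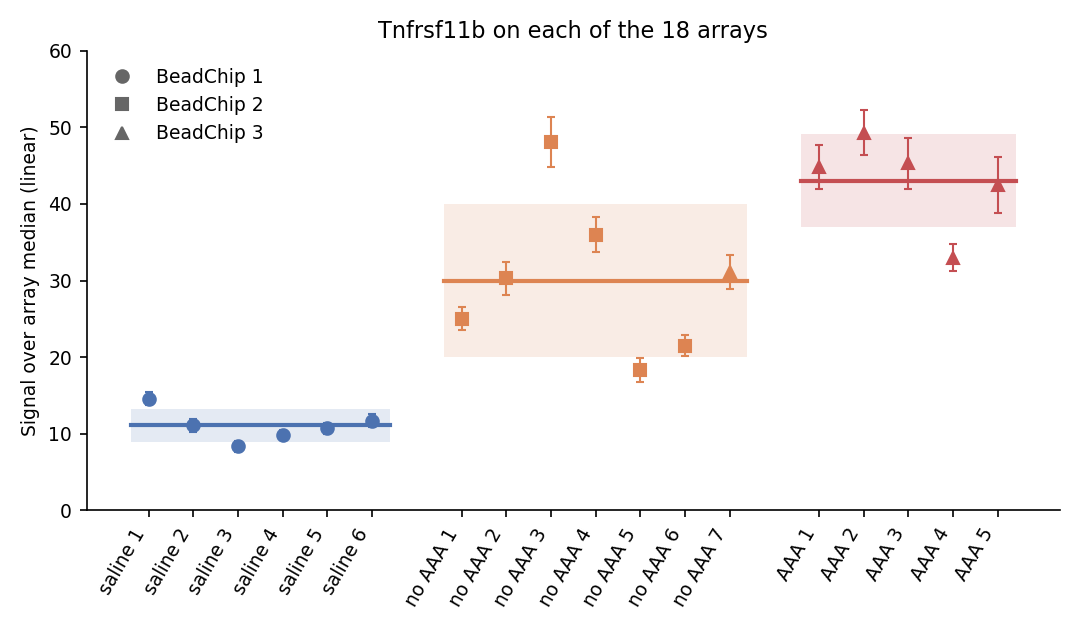
Tnfrsf11b signal over the array median (linear axis from 0) for each array, with the bead standard error as error bars and the group mean ± SD as line and band. Marker shapes give the BeadChip. The 6 saline arrays lie between 8.35 and 14.6, below all 12 arrays of infused mice, and no AAA arrays span 18.3 to 48.1.

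The group means were 11.1 ± 2.11 times the array median in saline (SD, n = 6), 30.0 ± 9.99 in no AAA (SD, n = 7) and 43.0 ± 6.07 in AAA (SD, n = 5). The spread was widest among resistant aortas, where the highest value was 2.63 times the lowest and the coefficient of variation was 33.2%. The same coefficient was 19.1% in saline and 14.1% in AAA, with highest to lowest ratios of 1.75 and 1.49. On the log2 scale the SD between arrays was 0.27 in saline, 0.47 in no AAA and 0.22 in AAA.

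The signal of Tnfrsf11b on 1 array was read from 18 to 35 beads, and its bead standard error was 5.23 to 8.51% of the signal. The median bead error was 0.10 on the log2 scale, and bead variance amounted to 8.18% of the residual variance between arrays within groups. The spread between aortas of 1 group was thus larger than the reading error of the probe. The raw signals, 979.8 to 1855.9 in saline, 2291.0 to 6437.2 in no AAA and 4214.3 to 6586.3 in AAA, all lay far above the array medians.

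Compared with saline controls, Tnfrsf11b was 3.91-fold higher in AAA (95% confidence interval 2.94 to 5.20). The log2 difference was 1.97 (SE 0.20, limma adjusted p = 1.6e-06). By limma, 30.5% of the 21434 tested probes were called higher in this comparison, and 16.2% had all 5 AAA arrays above all 6 saline arrays, as Tnfrsf11b had. Its difference was the 98th largest increase. An exact two-sided permutation test gave p = 0.0043, the smallest p that 462 arrangements allow, and 0.0065 after Benjamini-Hochberg adjustment over the 3 comparisons. The probe has its name from the study's lists of transcripts that differed from saline in AAA and in no AAA on these arrays. The p values of both comparisons with saline are therefore not independent evidence.

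Aneurysm resistant aortas also had more Tnfrsf11b than saline controls, by 2.63-fold (95% confidence interval 2.03 to 3.42). The log2 difference was 1.40 (SE 0.18, limma adjusted p = 1.2e-05), which is 71.1% of the difference between AAA and saline on this scale. Here 35.0% of tested probes were called higher and 14.7% had all resistant aortas above all controls. Among these 21434 probes its difference was the 16th largest increase. The exact two-sided permutation test gave p = 0.0012, the smallest of 1716 arrangements (0.0035 adjusted over the 3 comparisons). Both differences were large beside the median over all tested probes, 0.13 for AAA and 0.15 for no AAA against saline. After quantile normalization those medians were 0.015 and 0.069, and the Tnfrsf11b differences were 1.75 and 1.20.

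Between the groups of infused mice the difference was smaller. Tnfrsf11b was 1.48-fold higher in AAA than in no AAA (95% confidence interval 1.13 to 1.96), a log2 difference of 0.57 (SE 0.19, limma adjusted p = 0.042). Of all tested probes 10.8% were called higher and 3.98% had all 5 AAA arrays above all 7 resistant aortas, which Tnfrsf11b had not. Its difference was the 1379th largest increase. In 30 of the 35 pairs of an AAA and a resistant aorta the AAA value was the higher, and the exact two-sided permutation test gave p = 0.033 (0.033 adjusted over the 3 comparisons). The limma call lay close to the threshold. It was kept under 5 of 12 other settings of the processing and the test and lost under 7. Of the 5, 1 was a floor of 0.01 on the signal, which could not change the fit because the lowest signal was 43.9. The call was also lost in 10 of 18 fits that left out 1 array, over which the difference ranged from 0.46 to 0.69. Arrays whose omission ended the call were saline 5, no AAA 1, 2, 5, 6 and 7, and AAA 1, 2, 3 and 5.

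On BeadChip 3, the only one to hold both groups, the 5 AAA arrays (33.0 to 49.3 times the median) all lay above no AAA 7 (31.1 times the median). With BeadChip as a fixed block the difference was 0.45 (SE 0.39, limma adjusted p = 0.49), and since it then rests on 1 resistant aorta its error was about as large as its size. With BeadChip as a random block it was 0.56 (SE 0.21, limma adjusted p = 0.082). With the arrays assigned as in the ratio table, a choice made after seeing the data, the difference turned to -0.30 (SE 0.22, limma adjusted p = 0.52), while the differences from saline were 1.46 in AAA and 1.76 in no AAA. In that assignment limma called 0 of 21434 probes between AAA and no AAA (3114 at an unadjusted p under 0.05), against 4123 in the assignment used here.

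**Figure D2:**
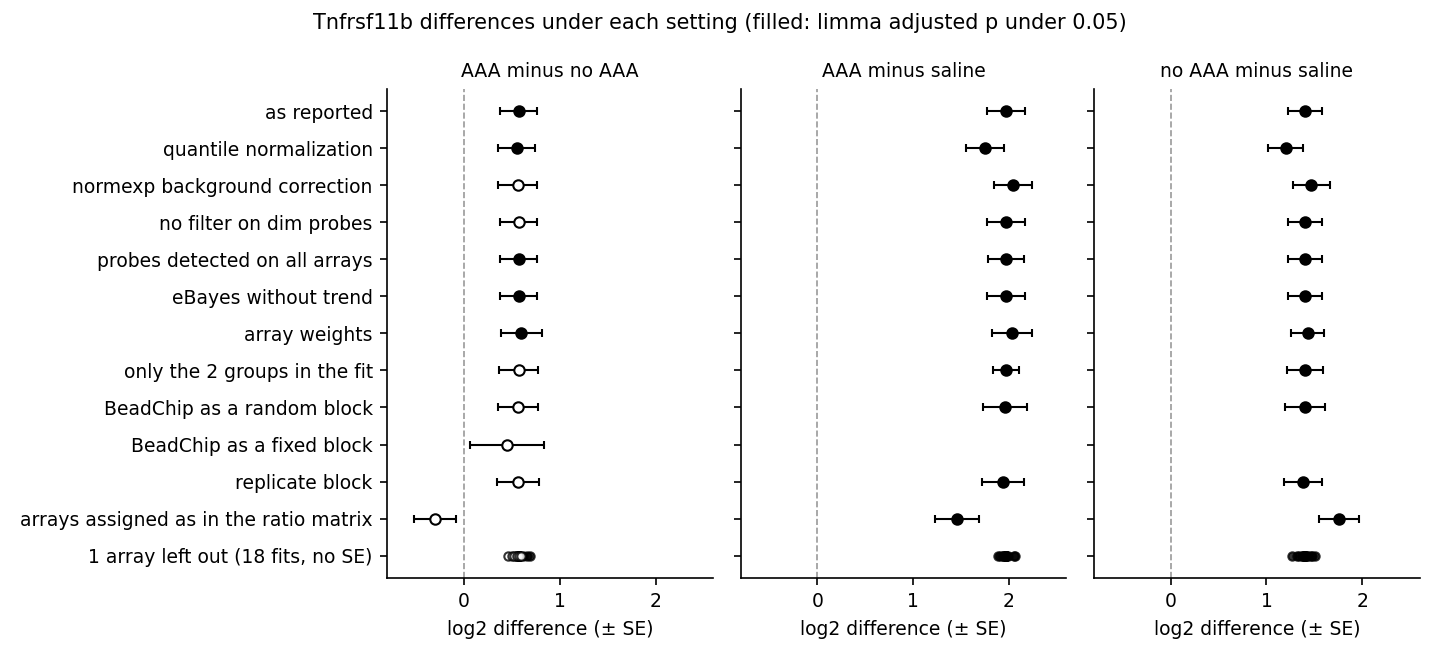
Log2 difference of Tnfrsf11b (± SE) in each comparison under each setting plotted, with filled points where the limma adjusted p was under 0.05. The methods' t-test, which lost the call between AAA and no AAA (0.52), and the signal floor of 0.01 are not plotted. A fixed BeadChip block can be fitted only between AAA and no AAA. The differences from saline were filled under every setting shown, whereas that between AAA and no AAA, 0.57 as reported, was filled in some settings and fell to -0.30 with the ratio table's assignment.

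The genes of the wider pathway were counted over lists written with earlier results of these data known. A gene had a name only if the study had listed its probe as differing on these arrays, so these counts are not independent evidence. Tnfsf11, Tnfsf10 and Tnfrsf11a, the ligands and the receptor that OPG acts on or competes with, had no named probe and were not analysed here. Of the list of RANKL and OPG genes, 4 of 18 had a named and tested probe. In AAA 3 of the 4 were higher than in saline (30.5% of all tested probes), in no AAA all 4 were (35.0% of all tested probes), and between AAA and no AAA 2 were higher and 1 was lower (10.8% and 8.46% of all tested probes). With quantile normalization these counts were 2, 3, and 2 with 1 (3573, 4349, and 2071 with 2318 of 21434 tested probes). With BeadChip as a fixed block 1 of the 4 was higher and 0 lower between AAA and no AAA (1034 and 450 of 21434 tested probes).

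Sdc1, a syndecan whose heparan sulphate chains bind OPG, rose in both groups of infused mice, by 1.78 in AAA (SE 0.21, limma adjusted p = 5.6e-06) and by 0.79 in no AAA (SE 0.19, limma adjusted p = 0.003). Its AAA arrays lay at log2 levels of 2.06 to 3.63, above all resistant aortas (1.49 to 2.02) and controls (0.74 to 1.30). Sdc3, a related syndecan, rose by 2.00 in AAA and by 0.57 in no AAA, the latter call being lost with quantile normalization, without the filter on dim probes and with BeadChip as a random block. Fos, a transcription factor that osteoclasts need, rose by 0.77 in AAA (limma adjusted p = 0.026) and by 1.04 in no AAA (limma adjusted p = 0.0019), and its AAA call was lost with quantile normalization. Sost, the gene of sclerostin, an inhibitor of Wnt signalling in bone, differed in pattern from Tnfrsf11b: it rose by 1.12 in no AAA and was 1.41 lower in AAA than in no AAA (SE 0.24, limma adjusted p = 0.00068). Its levels in AAA (0.91 to 2.77) overlapped those of saline (2.02 to 2.70).

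Of the TNF receptor and ligand superfamily, 7 of 41 genes other than Tnfrsf11b had a named and tested probe. In AAA against saline 6 of the 7 were higher and none passed in the other direction (30.5% and 9.22% of all tested probes). In no AAA against saline 2 were higher and 1 was lower (35.0% and 10.1% of all tested probes). Between AAA and no AAA 5 passed as higher in AAA (10.8% of all tested probes). With BeadChip as a fixed block 2 of the 7 did (1034 of 21434 tested probes). Among the ligands, Tnfsf13b, the B cell survival factor BAFF, rose by 1.40 in AAA and by 0.90 in no AAA (SE 0.21 and 0.19). Its difference between AAA and no AAA was 0.50 (limma adjusted p = 0.094). Tnfsf13, the related factor APRIL, rose by 1.01 in AAA and by 0.46 in no AAA, and the latter call was lost with quantile normalization.

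Among the receptors, Tnfrsf1b, a receptor for TNF itself, was 1.28 higher in AAA than in saline (SE 0.20, limma adjusted p = 5.1e-05) and did not pass in no AAA (0.39, limma adjusted p = 0.084). Tnfrsf13b, which encodes the BAFF and APRIL receptor TACI, stood at 2.02 to 2.35 in AAA, against 0.69 to 1.27 in resistant aortas and 0.79 to 1.90 in controls. Its AAA arrays thus lay above all others, and it was 1.04 higher than in saline (limma adjusted p = 6.5e-05). Tnfrsf22 and Tnfrsf26, mouse decoy-type receptors of the same superfamily, passed as higher in AAA than in saline and not in no AAA. For Tnfrsf22 the differences were 1.19 and 0.11. Tnfrsf26 was detected on 2 of 6 saline arrays, so its differences of 1.36 and 0.41 rest in part on values not above background. Ngfr, the low affinity neurotrophin receptor, was the exception in direction. In no AAA it fell by 1.40 relative to saline (SE 0.48, limma adjusted p = 0.023), a call lost without saline 1 and with BeadChip as a random block, and its saline arrays ranged from 0.72 to 3.82. Tnfrsf11b was thus 1 of 3 superfamily genes with a named probe that passed upwards in both groups of infused mice, beside Tnfsf13 and Tnfsf13b.

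Of the bone and calcification list, 10 of 28 genes were named and tested. In AAA against saline 7 were higher (30.5% of all tested probes), in no AAA against saline all 10 were (35.0% of all tested probes), and between AAA and no AAA 6 were higher and 3 lower (10.8% and 8.46% of all tested probes). With quantile normalization 7 of the 10 passed in no AAA (4349 of 21434 tested probes were higher). With BeadChip as a fixed block 1 of the 10 was higher and 1 lower between AAA and no AAA (1034 and 450 of 21434 tested probes). Spp1, the gene of osteopontin, a matrix and immune protein of bone and of diseased arteries, had the largest difference of the list. Its log2 levels were 3.17 to 5.56 in saline, 6.06 to 7.40 in no AAA and 6.90 to 8.25 in AAA, so that infused mice lay above all controls. It rose by 3.19 in AAA (SE 0.35, limma adjusted p = 3.4e-06) and by 2.19 in no AAA (SE 0.32, limma adjusted p = 3.9e-05). The difference of 0.99 between AAA and no AAA (limma adjusted p = 0.046) was kept in 5 of 12 alternatives.

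Postn, the matrix protein periostin, had differences from saline that lay closer together, 1.50 in AAA and 1.31 in no AAA, with 0.19 between them (limma adjusted p = 0.70). Enpp1, which makes the calcification inhibitor pyrophosphate, rose by 1.34 in AAA and by 0.76 in no AAA. Sox9, a cartilage transcription factor, rose by 1.07 and 0.51, and Bmp1, a procollagen protease, by 1.55 and 0.79. Comp and Acan, both cartilage matrix genes, differed most in AAA. Comp was 2.71 above saline in AAA and 0.65 in no AAA (SE 0.25 and 0.23), and Acan was 1.53 and 0.47 above. The no AAA calls of both were lost with quantile normalization and with BeadChip as a random block. Ogn, Bmp6 and Sost had another pattern: they rose by 0.77, 1.05 and 1.12 in no AAA and were 1.02, 0.95 and 1.41 lower in AAA than in no AAA. None of these 3 passed between AAA and saline (differences of -0.25, 0.09 and -0.30).

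All 10 of the 24 osteoclast genes that were named and tested were higher in AAA than in saline and than in no AAA (30.5% and 10.8% of all tested probes), and 5 were higher in resistant aortas than in controls (35.0% of all tested probes). With quantile normalization these counts were 9, 10 and 3 (3573, 2071 and 4349 of 21434 tested probes). Between saline and no AAA 1 of the 10 then passed downwards (2913 of 21434 tested probes). With BeadChip as a fixed block, which rests on 1 resistant aorta, the median difference between AAA and no AAA was 1.86, against 1.23 without it. Ctsk, the collagen-degrading protease cathepsin K of osteoclasts, rose by 1.80 in AAA (SE 0.23, limma adjusted p = 9.7e-06) and by 0.60 in no AAA (SE 0.21, limma adjusted p = 0.028). Ctsk lost its no AAA call with quantile normalization, without the filter on dim probes and with BeadChip as a random block. Its log2 levels were 4.69 to 5.15 in saline, 5.14 to 6.00 in no AAA and 6.03 to 7.84 in AAA. The AAA arrays thus lay above all others. Trem2, a receptor of osteoclasts and macrophages, rose by 2.90 in AAA and by 1.19 in no AAA, and its adaptor Tyrobp by 1.96 in AAA, with 0.69 in no AAA (limma adjusted p = 0.086). Gpnmb, a glycoprotein of the same cells, rose by 2.26 in AAA and by 1.43 in no AAA. Mmp14, a membrane-bound matrix protease, rose by 2.00 and 0.77.

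Mmp9, a secreted gelatinase, was 1.19 higher in AAA than in saline and 1.71 higher than in no AAA, with a difference of -0.53 in no AAA that did not pass. Fcer1g rose by 1.88, Csf1r, the receptor of macrophage colony stimulating factor, by 1.14, and Tcirg1, a proton pump subunit, by 1.38 in AAA. Clec2d, whose product inhibits osteoclast formation in mice, was 0.69 higher in AAA than in saline (limma adjusted p = 0.049), a call that 15 of 18 fits with 1 array left out lost, and 1.23 higher than in no AAA. Of the 18 macrophage and monocyte genes with a named probe, 5 of these osteoclast genes (Csf1r, Trem2, Fcer1g, Tyrobp and Gpnmb) are also members, so the lists cannot be told apart in whole tissue.

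Of 30 genes known as inducers or regulators of OPG, 7 were named and tested. In AAA against saline 6 were higher and 1 lower (30.5% and 9.22% of all tested probes). The 6 include Il6, which no saline array detected. In no AAA against saline 4 were higher and 1 lower (35.0% and 10.1% of all tested probes). Between AAA and no AAA 3 were higher and 1 lower (10.8% and 8.46% of all tested probes). With quantile normalization 2 were higher and 1 lower in no AAA against saline (4349 and 2913 of 21434 tested probes). With BeadChip as a fixed block 0 of the 7 passed between AAA and no AAA (1034 higher and 450 lower of 21434 tested probes). Il1b, an inflammatory cytokine that raises OPG in cultured vascular cells, had log2 levels of -0.13 to 1.90 in saline, 0.60 to 2.45 in no AAA and 1.77 to 4.49 in AAA, and was detected on 4 of the 6 saline arrays and on all others. It was 2.56 higher in AAA than in saline (SE 0.47, limma adjusted p = 0.00027) and did not pass in no AAA (0.57, limma adjusted p = 0.29). Il6, another inflammatory cytokine, was detected on 5 of 5 AAA, 3 of 7 no AAA and 0 of 6 saline arrays, so no difference from saline is given. Between AAA and no AAA it differed by 1.38, with AAA higher (SE 0.34, limma adjusted p = 0.0082), a value that rests in part on resistant aortas in which it was not above background.

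Tgfb2 and Tgfb3, growth factors of the transforming growth factor beta family, rose relative to saline by 1.25 and 1.00 in no AAA and by 0.72 and 0.83 in AAA. Tgfb2 was 0.53 lower in AAA than in no AAA (limma adjusted p = 0.027), a call kept in 6 of 12 alternatives, and the difference for Tgfb3 was -0.17 (limma adjusted p = 0.37). Osmr, a receptor subunit for oncostatin M, rose by 1.05 in AAA and by 0.49 in no AAA. Pdgfrb, a growth factor receptor of mural cells and fibroblasts, rose by 1.15 and 0.66. The no AAA calls of Osmr and Pdgfrb were lost with quantile normalization. Pparg, a nuclear receptor whose agonists lower OPG in cultured vascular smooth muscle and which is also a gene of fat cells, fell by 1.55 in AAA and by 2.18 in no AAA relative to saline (SE 0.24 and 0.22). Its levels of 4.52 to 5.43 in saline lay above all infused mice (2.12 to 3.93).

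**Figure D3:**
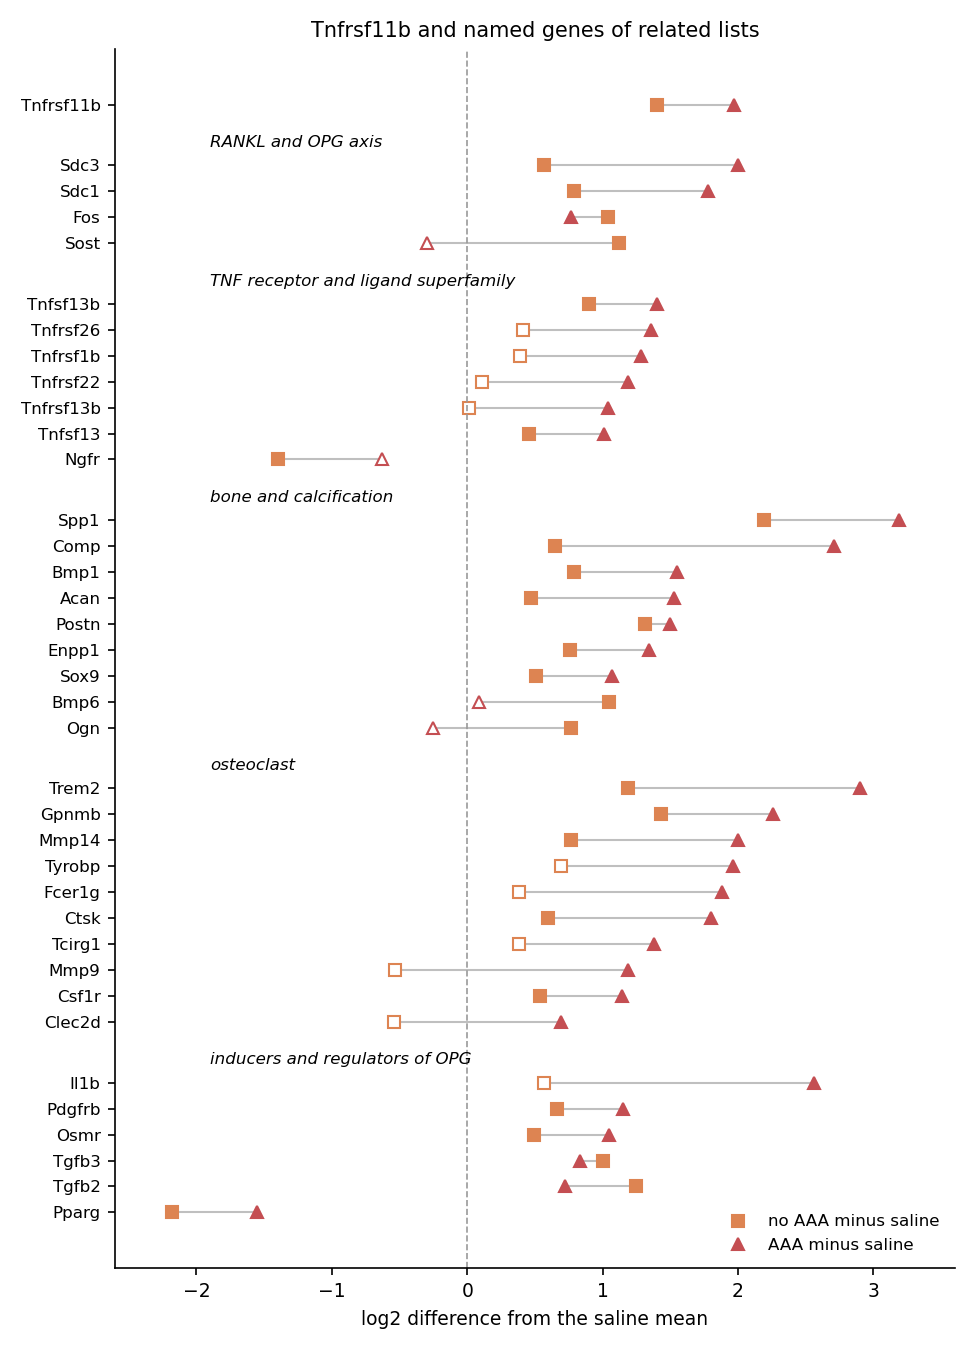
Log2 difference from the saline mean in no AAA (squares) and AAA (triangles) for Tnfrsf11b and the named genes of 5 related lists, filled where the limma adjusted p was under 0.05. Il6 is left out because no saline array detected it. Tnfrsf11b, at 1.40 and 1.97, has both points filled on the higher side, whereas Sost, Bmp6 and Ogn are filled in no AAA only and Pparg lies below 0 in both.

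The named genes whose levels followed Tnfrsf11b most closely were sought by Pearson correlation of log2 levels over the 18 arrays, among 1339 named genes. The arrays share their group and their scaling, and over all 21433 other tested probes the median r was 0.30, with a 95th percentile of 0.81. The 10 highest were Tnc (0.98), Rhod (0.96), Lox, Rarres1 and Cd109 (each 0.95), and Fn1, Emp1, Itpripl2, Lxn and Frzb (each 0.94). All 10 rose in AAA and in no AAA relative to saline, as a high r over groups this far apart requires. With quantile normalization 9 of these 10 genes were among the 10 highest, and with Spearman correlation 4 of the 10 were. The lowest r belonged to Idh3g, Sucla2 and Ldhb (each -0.95) and to Etfa and LOC226017 (each -0.94). Idh3g, Sucla2, Ldhb and Etfa encode enzymes of mitochondrial or lactate metabolism, and all 5 were lower in both groups of infused mice, by 1.45 in no AAA and 1.61 in AAA for Idh3g.

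Group differences were then removed by taking each array's deviation from its group mean. Over these deviations the 95th percentile of r was 0.47 (median 0.01), and the highest named genes were Tnc (0.84), Cd109 (0.83), Tmem45a (0.80), Srpx2 (0.79), Clspn and Col15a1 (each 0.77), Diras2 and Rhod (each 0.76), Ckap2l (0.75) and Stx11 (0.74). Tnc, Cd109 and Rhod were in both sets of 10. Tnc encodes tenascin C, a matrix glycoprotein that is made where tissue is remodelled, and Cd109 a membrane glycoprotein that binds transforming growth factor beta. Col15a1 encodes a basement membrane collagen and Srpx2 a secreted sushi-repeat protein, while Clspn and Ckap2l are genes of dividing cells.

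Tnc had the highest r with Tnfrsf11b of all tested probes. By r of deviations it ranked 3rd among them, where the highest r was 0.88. Its log2 levels were 3.27 to 3.66 in saline, 4.38 to 5.22 in no AAA and 4.51 to 5.44 in AAA. Among the resistant aortas the order of the 7 arrays by Tnc was that by Tnfrsf11b, with no AAA 3 (5.22) and no AAA 4 (5.09) highest and no AAA 5 (4.38) and no AAA 6 (4.49) lowest. AAA 4 was the lowest AAA array in both, at 4.51 for Tnc and 5.05 for Tnfrsf11b. The r of deviations was 0.98 within the 7 resistant aortas and 0.75 within the 6 controls, and it was 0.78 over 16 arrays without no AAA 3 and no AAA 5, which lay farthest from the median. Because Tnc was chosen for its r on these same arrays, the shared order and these values of r are not independent evidence. Tnc rose by 1.65 in AAA (SE 0.16, limma adjusted p = 1.5e-06) and by 1.32 in no AAA (SE 0.15, limma adjusted p = 3.2e-06). Between AAA and no AAA its difference of 0.33 did not pass (limma adjusted p = 0.15).

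**Figure D4:**
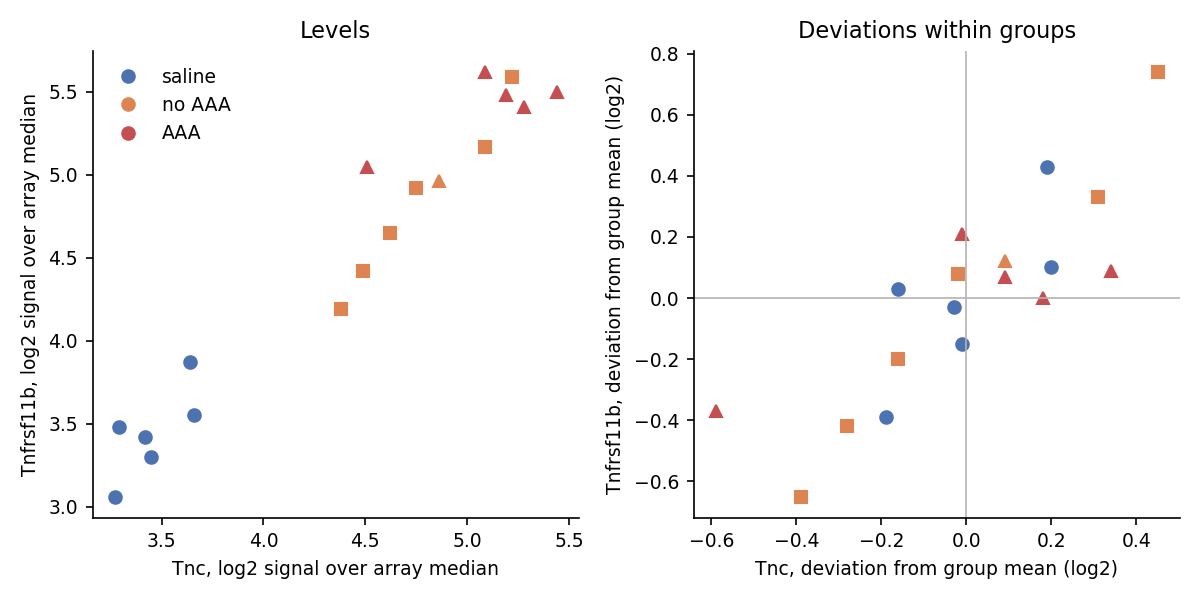
Tnfrsf11b against Tnc on each of the 18 arrays, as log2 levels (left) and as deviations from the group means (right), with colours for groups and shapes for BeadChips (circle 1, square 2, triangle 3). The 3 groups line up along 1 diagonal on the left (r = 0.98). On the right no AAA 3 (0.74 for Tnfrsf11b and 0.45 for Tnc) and no AAA 5 (-0.65 and -0.39) mark the ends for Tnfrsf11b.

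Genes that mark the cell types and layers of the aorta moved between the groups too, and their part in the Tnfrsf11b differences was not tested. Of the fibroblast and matrix list, 22 of 26 genes were named and tested and all were detected on every array. Their summed signal was 716 to 1025 times the array median in saline, 1156 to 2043 in no AAA and 1938 to 3275 in AAA. All 22 were higher in AAA than in saline (30.5% of all tested probes), 19 were in no AAA (35.0% of all tested probes), and 16 passed upwards between no AAA and AAA (10.8% of all tested probes). Their median differences were 1.62, 0.89 and 0.67, against 0.13, 0.15 and -0.01 over all tested probes and 0.87, 0.07 and 0.52 over the named ones, so that between AAA and no AAA the list lay close to other named genes. With BeadChip as a fixed block 3 of the 22 passed upwards between no AAA and AAA (1034 of 21434 tested probes). The mean level of these genes deviated with Tnfrsf11b within groups (r = 0.63 over 18 arrays, 0.48 without no AAA 3 and no AAA 5). Tnc, Fn1, Lox and Col15a1 are members of this list.

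Macrophage and monocyte genes (18 of 24 named and tested) summed to 241 to 478 times the median in saline, 484 to 843 in no AAA and 764 to 2211 in AAA. All 18 were higher in AAA than in saline and than in no AAA (30.5% and 10.8% of all tested probes), and 12 rose between saline and no AAA (35.0% of all tested probes). The 12 became 8 with quantile normalization and with BeadChip as a random block (4349 and 5982 of 21434 tested probes). With BeadChip as a fixed block 9 of the 18 passed upwards between no AAA and AAA (1034 of 21434 tested probes). Their mean level had an r of deviations of 0.23 with Tnfrsf11b, and lymphocyte genes (9 of 18) one of 0.09. The lymphocyte sums were 132 to 526 in AAA and lay above all resistant aortas (29.4 to 65.6). Those of saline overlapped both ranges, at 27.4 to 652. Saline 1 (237) and saline 2 (652) reached the AAA range, and the other saline arrays lay at 76.8 or below. Between no AAA and AAA 7 of the 9 passed upwards (10.8% of all tested probes) and 0 downwards, with a median difference of 1.24. With BeadChip as a fixed block this median was 1.61.

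Smooth muscle genes (6 of 22) had a different order of groups. They summed to 118 to 152 in no AAA, above all saline (47.8 to 71.8) and all AAA arrays (38.4 to 81.7), and all 6 passed as higher in resistant aortas than in controls (35.0% of all tested probes) and as lower in AAA than in no AAA (8.46% of all tested probes). With BeadChip as a fixed block 3 of the 6 were lower in AAA than in no AAA (450 of 21434 tested probes). Acta2, the smooth muscle actin gene, rose by 1.34 in no AAA and differed by 0.22 between AAA and saline (limma adjusted p = 0.50). Slmap, a membrane protein gene of muscle, was 0.73 lower in AAA than in saline (limma adjusted p = 0.0075), and the list's sums in AAA 1 and AAA 3 lay below all saline arrays. Slmap was singled out after its values were seen. The r of deviations with Tnfrsf11b was 0.10 over 18 arrays, 0.86 within the 6 controls and 0.05 within the 7 resistant aortas. The 3 named endothelial genes of 18, Robo4, Adgrl4 and Vcam1, summed to 71.3 to 102 in saline, 85.0 to 135 in no AAA and 107 to 211 in AAA (r of deviations -0.04). Robo4 and Adgrl4 were lower in no AAA, by 1.39 and 1.22, and Vcam1 was higher by 0.82. The mean log2 level of the 3 genes was lower in no AAA (3.599 to 4.246) than in saline (4.335 to 4.762), unlike the sum. In AAA it was 4.533 to 5.545.

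Fat genes (18 of 24) were lower in infused mice than in controls. Their summed signal was 2297 to 3375 in saline, 434 to 1352 in no AAA and 658 to 1302 in AAA, and 18 were lower in AAA and 17 in no AAA than in saline (9.22% and 10.1% of all tested probes). Between AAA and no AAA their median difference was 0.42, with AAA higher, against -0.01 over all tested probes and 0.52 over the named ones. By limma 2 of the 18 passed as higher in AAA, a share near that of all tested probes (10.8%). They were Lpl (0.75) and Cebpa (0.87), a lipase and a transcription factor of fat cells that were named here after their values were seen. Adipoq, the adiponectin gene, had levels of 7.76 to 8.40 in saline, 5.27 to 7.27 in no AAA and 6.88 to 7.49 in AAA. Within groups the mean level of the fat genes deviated against Tnfrsf11b, with r = -0.62 over 18 arrays and -0.79 without no AAA 3 and no AAA 5, and the deviations shared a sign on 1 of 18 arrays. The median fat sum was 1220 in AAA and 719 in no AAA, and no AAA 4 (434) and no AAA 7 (478) lay below all AAA arrays.

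**Figure D5:**
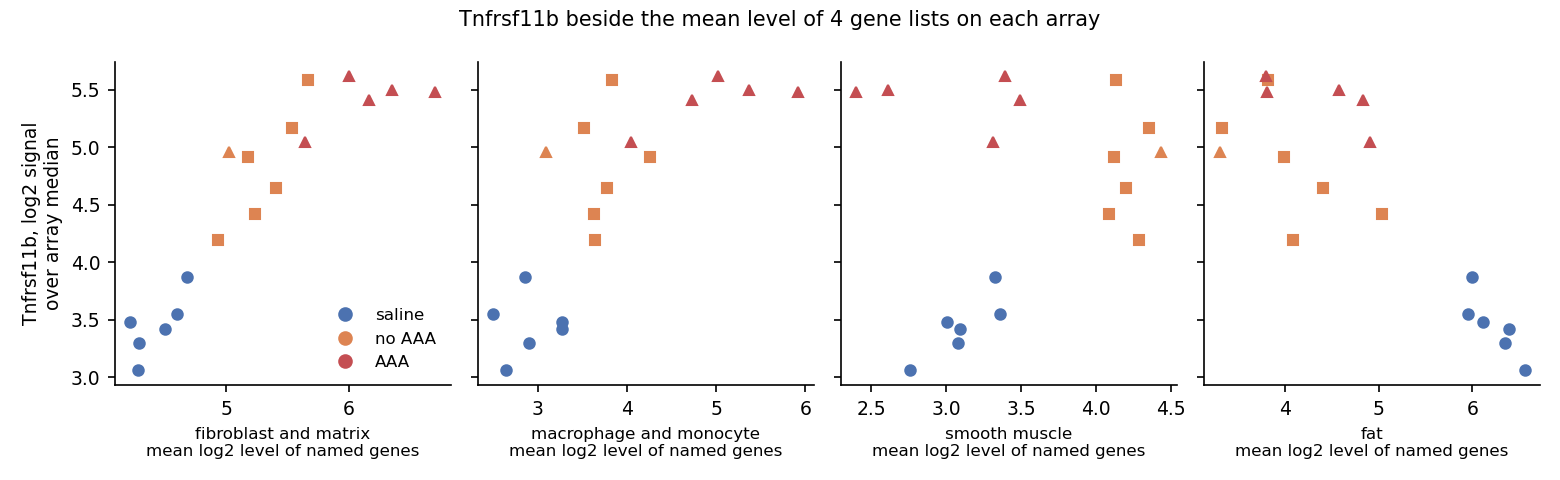
Tnfrsf11b log2 level against the mean log2 level of the named genes of 4 lists on each array, with colours for groups and shapes for BeadChips (circle 1, square 2, triangle 3). Tnfrsf11b rises with the matrix genes across groups and within them (r of deviations 0.63) and, within groups, runs against the fat genes (-0.62), while smooth muscle genes separate the no AAA arrays from both other groups.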

How the data were processed

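Total RNA of each aorta was labelled and hybridised to 1 Illumina Mouse-6 array. The authors summarised beads to probes with BeadStudio (version 2 per the labels, 2.3.41 per the file headers) and deposited an average signal intensity per probe and array without normalisation, with a detection score, a bead standard error intensity and a bead count. A probe with a deposited detection score over 0.95 was taken as detected. The ratio table that the authors deposited was used only to check which array each column holds. Of the signal table's columns, 72 with other values were not used. Of 13 repeated probe IDs, 4 bacterial controls were left out and the rest averaged. Each signal was divided by its array median and expressed as log2. The lowest signal was 43.9.

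Testing covered the 21434 probes (46.0%) that 5 or more arrays detected. It used limma 3.58.1 under R 4.3.3 (3 group means, eBayes with trend, Benjamini-Hochberg adjustment, threshold 0.05), and the fit was tested on simulated data. Each array is 1 animal, and the number of arrays limits the precision. Exact permutation tests used scipy 1.17.1, on pandas 2.3.3 and numpy 2.4.6. Alternatives covered scaling, background, filters, variance model, a signal floor of 0.01, BeadChip and replicate number as blocks, the methods' t-test, and arrays left out. The floor lay below the lowest signal (43.9), so that alternative could not change any call.

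Names came from the study's lists and were updated through RefSeq where possible (1237 by accession, 96 by symbol, 109 by synonym, 107 kept). Named here are Tnfrsf11b, the 10 genes with the highest and the 5 with the lowest correlation with it, the 10 with the highest correlation of deviations, all named members of 5 pathway lists, and, of other lists, members among the 4 with the highest signal. Where a gene had several named probes, the brightest on average stood for it. The gene and the lists were chosen with earlier results of these data known. The study's fold changes and p values were not used.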

Additional observations from a re-analysis of the deposited data

Results flagged for a closer look

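Tnfrsf11b had no array that stood apart from its group. Among 80 genes named or counted above, each screened in 3 groups, 12 of 240 groups held 1 array whose gap to its nearest neighbour was large for the range of the group. Chance gives about 1 in 20. Values are log2 levels.

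AAA 4 was the lowest AAA array for Cd109 (3.40, others 4.47 to 4.75) and Vcam1 (6.27, others at 7.14 or above) and the highest for Etfa (7.56, others 7.05 to 7.18). It was also the lowest AAA array for Tnfrsf11b, at 5.05. AAA 1 was the highest for Tgfb3 (4.76, others 4.53 to 4.59). Among resistant aortas, no AAA 7 was the lowest for Tyrobp (2.11, others 3.40 to 4.09), Fcer1g (3.53, others 4.89 to 5.80) and Tnfrsf13b (0.69, others 1.06 to 1.27). This array is the only resistant aorta on BeadChip 3. No AAA 3, which had the highest Tnfrsf11b of its group, was also the highest for Ckap2l (2.28, others 0.85 to 1.35). Cd109, Etfa and Ckap2l were named for their correlation with Tnfrsf11b, so arrays extreme in both are not a separate result. No AAA 2 was the highest for Lyz2 (7.71, others 7.24 to 7.42), no AAA 6 the lowest for Osmr (4.49, others 4.83 to 5.01) and no AAA 4 the lowest for Ucp1 (4.15, others 7.01 to 8.43). Saline 2 was the highest for Tnfrsf13b (1.90, others 0.79 to 1.20).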

How the results depend on the processing

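The differences of Tnfrsf11b from saline kept their direction and their limma call under all 11 other settings of processing and test. They ranged from 1.75 to 2.04 in AAA and from 1.20 to 1.47 in no AAA. The same held in all fits with 1 array left out (1.89 to 2.06 and 1.27 to 1.51). Of the 11 settings, the floor of 0.01 on the signal could not change a fit. The difference of 0.57 between AAA and no AAA kept its direction under all 12 such settings but lost its call with normexp background correction (0.56, limma adjusted p = 0.053), without the filter on dim probes (0.57, limma adjusted p = 0.083), with only the 2 groups in the fit (0.57, limma adjusted p = 0.073), with BeadChip as a random block (0.56, limma adjusted p = 0.082) or a fixed block (0.45, limma adjusted p = 0.49) and by the methods' t-test after adjustment (0.52). That t-test, which the methods used without adjustment, gave an unadjusted p of 0.02 and an adjusted p of 0.14. With 1 array left out the difference ranged from 0.46 to 0.69. It was reversed, at -0.30, with the arrays assigned as in the ratio table, an alternative added after seeing the data. Replicate numbers did not pair the arrays: deviations of 16 same-numbered pairs correlated from -0.188 to 0.293, 4 of them above 0.1, and 2 of 17 arrays correlated best with their own number. With the replicate block the difference between AAA and no AAA was 0.56 (limma adjusted p = 0.11), and it changed no other Tnfrsf11b call.

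Probes called between AAA and no AAA fell from 4123 to 1484 with BeadChip as a fixed block and to 0 in the ratio table's assignment. By the methods' t-test they fell to 389 after adjustment, with 5194 at an unadjusted p under 0.05. With 1 array left out the limma calls ranged from 2708 (without AAA 3) to 4451. Calls between AAA and saline fell from 8517 to 5194 by the methods' t-test after adjustment, with 8873 at an unadjusted p under 0.05. Quantile normalization changed the split of calls from 6540 higher and 1977 lower to 3573 and 3195 in AAA against saline, and from 7498 and 2155 to 4349 and 2913 in no AAA against saline. Why these counts moved was not tested.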
